A study of Mus musculus with 8 samples.

Results

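Interferon signalling in the pancreas of Bach2-deficient mice was examined through 9 genes, chosen by name: the transcription factors Stat2, Irf9, Irf1, Irf7 and Irf8 and the type I interferon targets Isg15, Ifit1, Ifit3 and Bst2. All 9 were found among the 21434 genes of the table, and all 9 were among the 12820 that passed the filter on low counts. They were picked by name, with earlier results of these data known. Bach2 encodes a transcriptional repressor of lymphocytes and other immune cells. Pancreatic tissue of untreated mice was sequenced at 18 weeks of age, and the question was how the loss of Bach2 changes gene expression in this organ. The 4 Bach2KO mice were homozygous for the constitutive, whole-body knockout allele of the line C57BL/6N-Bach2tm1b(EUCOMM)Wtsi/leg, and the 4 Bach2WT mice were wild-type controls of the same line. In both genotypes, mice 1 and 2 were the females and mice 3 and 4 the males. Since the deletion was present in every cell type, and since Bach2KO mice of this line develop lung disease, a difference in the pancreas cannot be assigned to pancreatic cells that lack Bach2.

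Type I interferons bind a receptor on nearly every cell, whose kinases phosphorylate Stat2. Stat2 and Irf9 are parts of a complex that binds the interferon-stimulated response element (ISRE) in front of genes such as Isg15, Ifit1, Ifit3 and Bst2. Interferon-gamma acts through another receptor and through the gamma-activated site (GAS), by which Irf1 and Irf8, among others, are induced. Irf7 is itself induced by type I interferon and amplifies its production. In the healthy pancreas, acinar cells make most of the RNA, whereas Irf8 is best known from myeloid cells and B cells. In bulk tissue, a lower number of cells of a type and less RNA per cell cannot be told apart.

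To show which of the 2 kinds of site the genes carry, their RefSeq promoter windows (GRCm38.p6, 250 bases before to 50 bases after the annotated start) were searched on both strands. The ISRE was searched as GAAANNGAAA and the GAS as TTCNNNGAA, and matches of both could overlap. All 9 genes had a window. ISRE matches were found in 5 of the 9 genes (Stat2, Isg15, Ifit1, Ifit3 and Bst2) and GAS matches in 3 (Irf1, Irf8 and Bst2), while the windows of Irf7 and Irf9 held neither. Of all 27025 genes with a window, 3.993% held an ISRE match and 9.554% a GAS match. Counted by window, the shares were 3.443% and 8.298% of 32851. A match describes the letters and shows no binding. The stretches with the matches lie upstream of the start and are given below in the 5′ to 3′ direction of the gene, with every matched base in capitals and 20 bases on either side. Matches on the opposite strand appear as the reverse complement of the motif.
Stat2, chr10:128270256-128270305, plus strand: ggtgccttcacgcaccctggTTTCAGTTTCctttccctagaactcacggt
Irf1, chr11:53769904-53769952, plus strand: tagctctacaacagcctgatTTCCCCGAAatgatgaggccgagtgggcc
Irf8, chr8:120736167-120736233, plus strand: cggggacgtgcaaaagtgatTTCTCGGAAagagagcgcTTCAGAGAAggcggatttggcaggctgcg
Isg15, chr4:156200855-156200916, minus strand: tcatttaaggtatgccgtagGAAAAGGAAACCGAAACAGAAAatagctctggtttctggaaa
Ifit1, chr19:34640765-34640833, plus strand: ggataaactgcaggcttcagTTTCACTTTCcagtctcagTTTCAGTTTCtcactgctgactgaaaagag
Ifit3, chr19:34583353-34583436, plus strand: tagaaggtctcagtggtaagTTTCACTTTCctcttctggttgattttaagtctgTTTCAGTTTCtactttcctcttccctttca
Bst2, chr8:71537567-71537628, minus strand: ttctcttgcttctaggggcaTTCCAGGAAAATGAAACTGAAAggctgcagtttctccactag

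The genes differed in how these letters were arranged. Isg15 carried 3 overlapping ISRE matches in a row, which began 78, 72 and 66 bases upstream of the start. Ifit1 (104 and 85 bases) and Ifit3 (156 and 122 bases) each carried 2 separate ones. In Bst2, 2 overlapping ISRE matches (130 and 124 bases) also overlapped a GAS match at 136 bases. Irf1 had a single GAS match 90 bases upstream, and Irf8 had 2, at 171 and 153 bases. The only match of Stat2 lay farther from the start, at 222 bases.

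**Figure D1:**
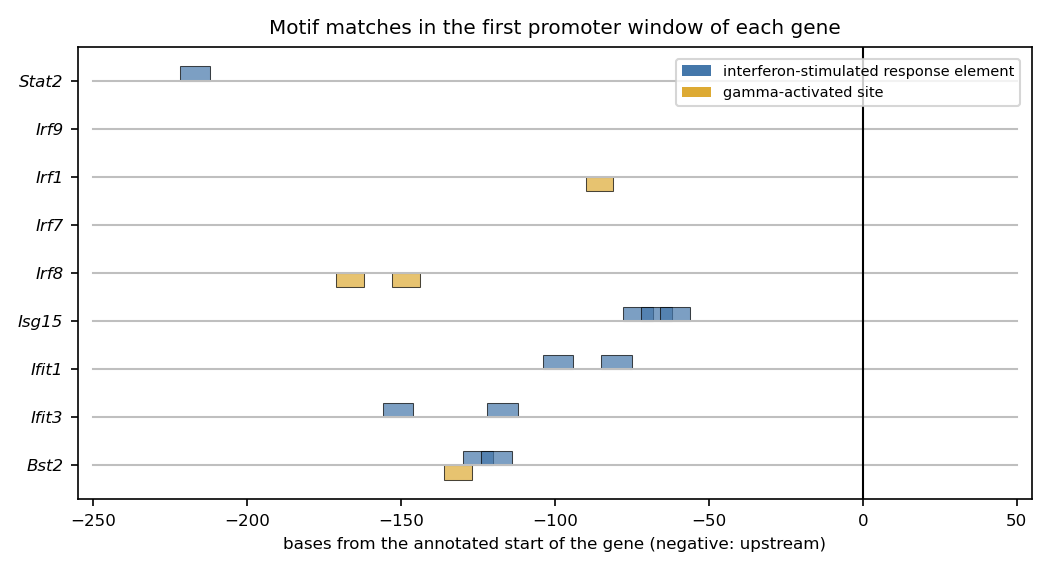
Position of each ISRE match (blue, above the line) and GAS match (yellow, below the line) in bases from the annotated start, for the first RefSeq window of each of the 9 genes. The 4 type I targets carry ISRE matches between 156 and 66 bases upstream, Irf1 and Irf8 carry GAS matches, and Irf7 and Irf9 have neither.

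The 8 libraries held 72299745 to 172029360 counts on genes, of which 18 very abundant genes took 85.8% to 89.4%, so the remainder was shared by all other genes. Levels are given as CPM (counts scaled to a common library size) after TMM normalization. All 8 acinar markers of the pancreas were detected, and their summed level was 334288, 367866, 372320 and 336394 CPM in Bach2KO mice 1 to 4 and 345350, 428736, 455840 and 421967 CPM in Bach2WT mice 1 to 4. Bach2WT 1 thus lay among the Bach2KO libraries. Of these 8 markers, 6 had an estimate below 0, and 1 (Cpa1, a carboxypeptidase, log2 fold change −0.53) was lower in Bach2KO mice without overlap and at an unadjusted p under 0.05. At that threshold, 457 of all 12820 genes tested were lower, and the share of genes lower without overlap was not computed. The part of the difference in acinar markers in the levels given here was not tested. Bach2 itself had 3 to 16 counts in Bach2KO libraries and 4 to 31 in Bach2WT libraries, which is too few to check the genotype labels. On the first principal component (23.3% of the variance), Bach2KO 3 lay apart from the other 7 libraries, and estimates that rest on it are also given without it. On the second (21.1%), Bach2WT 1 (30.3) lay among the Bach2KO libraries (7.18 to 53.9). Bach2WT 2, 3 and 4 were at −37.9, −29.6 and −67.5. The TMM factors were 1.05 to 1.18 in Bach2KO libraries, 1.10 in Bach2WT 1 and 0.826 to 0.858 in the other Bach2WT libraries. The genotypes were compared with edgeR's quasi-likelihood test over all 12820 genes, with Benjamini-Hochberg adjustment over all of them. The labels do not give the litter of any mouse, and p-values measure the spread between these libraries. The study kept independent colonies in Rostock and Lübeck, and the labels do not say which colony each mouse came from. Whether colony coincided with genotype is therefore not known.

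None of the 9 genes passed an adjusted p of 0.05 in edgeR's test, in which 1 gene in all passed (0.0078% of the genes tested), and none of the 9 did so with DESeq2 or with limma on FPKM. At an unadjusted p under 0.05, 1 of the 9, Irf1, was higher in Bach2KO mice, beside 3.9% of all genes tested. Irf1 was also the only one of the 9 whose levels did not overlap between the genotypes, beside 2.57% of all genes that were higher without overlap. The estimates were above 0 for 7 genes and below 0 for Stat2 and Bst2. The median of the 9 log2 fold changes was 0.65, and the median of all genes tested was 0.05. Without Bach2KO 3, the median of the 9 was 0.18.

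**Figure D2:**
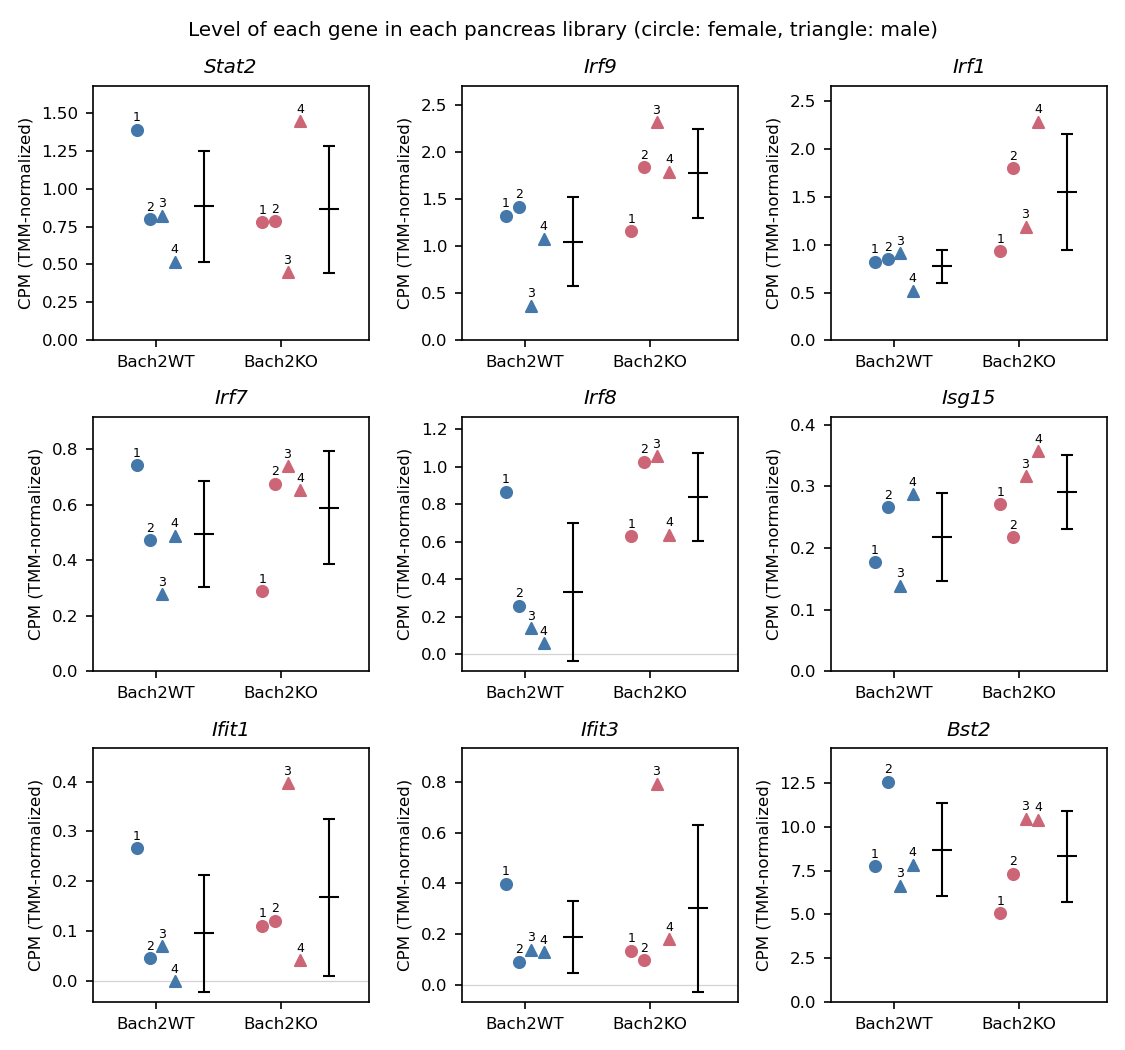
CPM (vertical axes, linear, each with its own range) of the 9 genes in the 4 Bach2WT (blue) and 4 Bach2KO (red) libraries, with circles for females, triangles for males, the mouse number above each point, and mean ± SD to the right (n = 4 each). Only for Irf1 do all Bach2KO points (0.933 CPM and above) lie above all Bach2WT points (0.912 CPM and below).

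Stat2 and Irf9 are parts of the complex that binds the ISRE. Stat2 (ENSMUSG00000040033) lies at chr10:128106428-128128718 on the plus strand of GRCm39, the build of the coordinates in the table. Its levels in Bach2KO mice 1 to 4 were 0.778, 0.785, 0.449 and 1.45 CPM, and those in Bach2WT mice 1 to 4 were 1.39, 0.800, 0.822 and 0.518 CPM. The highest and the lowest library were both Bach2KO males, and the Bach2WT values fell between them. The means were 0.865 ± 0.418 and 0.882 ± 0.365 CPM (SD, n = 4 each). In edgeR the log2 fold change was −0.02 (SE 0.41, adjusted p = 0.998).

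Irf9 (ENSMUSG00000002325, chr14:55841028-55847487, plus strand) provides the DNA-binding part of that complex. It was measured at 1.16, 1.84, 2.31 and 1.79 CPM in Bach2KO mice and at 1.32, 1.42, 0.369 and 1.08 CPM in Bach2WT mice (mice 1 to 4). Bach2KO mice 2, 3 and 4 were above all Bach2WT mice, whereas Bach2KO 1 was below 2 of them. The log2 fold change was 0.76 (SE 0.38, edgeR adjusted p = 0.701), and the exact permutation test of the means gave p = 0.0857 (two-sided, smallest possible p = 0.0286). Bach2WT 3 had the lowest level, and without it the log2 fold change was 0.47. Irf9 shares 123 bases with Rnf31 on the same strand, a gene with 174 to 996 counts per library. Whether reads from the shared stretch were counted for 1 of these genes or for neither is not known.

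Irf1, Irf7 and Irf8 are members of the interferon regulatory factor family. Irf1 (ENSMUSG00000018899, chr11:53660841-53669200, plus strand) is an early target of interferon-gamma and an activator of antigen presentation genes. In Bach2KO mice 1 to 4 it stood at 0.933, 1.80, 1.19 and 2.29 CPM, against 0.822, 0.846, 0.912 and 0.518 CPM in Bach2WT mice 1 to 4. All Bach2KO libraries were above all Bach2WT libraries, but Bach2KO 1 exceeded Bach2WT 3 only narrowly. The means were 1.55 ± 0.609 and 0.775 ± 0.175 CPM, a log2 fold change of 1.00 (SE 0.34, edgeR adjusted p = 0.552). The exact permutation test of the CPM gave p = 0.0286, the smallest that 4 against 4 mice allow. With the deposited FPKM values, which were scaled with other size factors, Bach2WT 3 (0.227) lay just above Bach2KO 1 (0.223), and the exact permutation p was 0.0571. The groups also overlapped with DESeq2 or RLE scaling, with a length or GC offset, and without Bach2KO 3, and without Bach2KO 4 Irf1 no longer reached an unadjusted p of 0.05. The antisense gene Gm17334 covers 3144 bases of Irf1 and had 0 to 6 counts per library. Whether the libraries kept the strand is not settled by the protocol, and reads of the pair cannot be told apart.

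Irf7 (ENSMUSG00000025498, chr7:140842619-140846394, minus strand) showed the smallest difference of the 3. Its levels were 0.290, 0.676, 0.740 and 0.653 CPM in Bach2KO mice and 0.744, 0.472, 0.279 and 0.490 CPM in Bach2WT mice. The 2 lowest libraries were 1 of each genotype (Bach2WT 3 and Bach2KO 1), and so were the 2 highest (Bach2WT 1 and Bach2KO 3). The log2 fold change was 0.25 (SE 0.45, adjusted p = 0.947 in edgeR). The opposite strand holds Phrf1, which shares 45 bases with Irf7 and had 69 to 413 counts.

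Irf8 (ENSMUSG00000041515, chr8:121463097-121483433, plus strand), a factor of myeloid and B cell development, had the highest estimate of the 9. Bach2KO mice 1 to 4 had 0.630, 1.03, 1.06 and 0.637 CPM. In Bach2WT mice 1 to 4 the levels were 0.866, 0.259, 0.139 and 0.0576 CPM, the last resting on 4 counts. Bach2WT mice 2, 3 and 4 were thus below all Bach2KO libraries, and Bach2WT 1 lay among the Bach2KO values. The means of 0.838 ± 0.236 and 0.331 ± 0.367 CPM gave a log2 fold change of 1.34 (SE 0.64, edgeR adjusted p = 0.678), and the exact permutation test gave p = 0.0857. Without Bach2WT 1 the log2 fold change was 2.41 (edgeR adjusted p = 0.227).

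Markers of immune cells were summed beside Irf8, with different patterns. The 5 genes of all leukocytes were Ptprc, Coro1a, Laptm5, Cd53 and Cd52. Their summed level was 11.0, 7.20, 4.23 and 3.97 CPM in Bach2WT mice 1 to 4, in the same order as Irf8. In Bach2KO mice 1 to 4 it was 9.32, 12.1, 10.0 and 8.29 CPM, an order that differed from that of Irf8. At an unadjusted p under 0.05, 1 of these 5 genes was higher in Bach2KO mice, beside 3.9% of all genes tested. Of 8 macrophage markers, 6 had an estimate above 0 and 1 was higher at that threshold, with sums of 18.9 to 31.3 CPM in Bach2KO and 14.5 to 29.4 CPM in Bach2WT libraries, where Bach2WT 2 and not Bach2WT 1 was highest. For B cells, 2 of 5 markers passed the filter, both with estimates below 0, and the sums were 0.0264 to 1.74 CPM and 0.320 to 3.62 CPM, the latter again highest in Bach2WT 1. Of 6 markers of conventional dendritic cells, 2 passed the filter, and the sums did not overlap (1.22 to 1.69 CPM in Bach2KO, 0.822 to 1.10 CPM in Bach2WT). Neither of these 2 genes reached an unadjusted p of 0.05 or was without overlap by itself. Of all single genes tested, 2.57% were higher without overlap, and the share for sums of genes was not computed. Plasmacytoid dendritic cells are the professional producers of type I interferon. Of their 4 markers only Tcf4 passed the filter, with an estimate below 0 (log2 fold change −0.31). The sums of the 4 were 1.07 to 2.00 CPM in Bach2KO and 1.61 to 2.39 CPM in Bach2WT libraries. With 1 marker tested, these values do not show whether such cells were present or changed in number. Of 8 T cell markers, 5 passed the filter, all with estimates above 0 and none at an unadjusted p under 0.05. Their sums overlapped (0.664 to 2.74 CPM in Bach2KO, 0.187 to 1.74 CPM in Bach2WT). Of 5 neutrophil markers, 1 passed (log2 fold change 1.40). Of 5 plasma cell markers (Jchain, Sdc1, Mzb1, Xbp1 and Tnfrsf17), 3 passed, 2 with estimates above 0. The sums of these 5 were 120 to 173 CPM in Bach2KO and 150 to 168 CPM in Bach2WT libraries. They lay far above the sums of the 5 genes of all leukocytes and cannot be read as a level of plasma cells. Which cells they came from was not tested. No marker of natural killer cells or eosinophils passed. Whether any of these cells account for a part of the levels of Irf8 or of the other 8 genes was not tested.

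The 4 type I targets differed widely in abundance. Bst2 (tetherin, ENSMUSG00000046718, chr8:71986899-71990100, minus strand) holds budding viruses at the cell surface. Its level was 5.09, 7.32, 10.5 and 10.4 CPM in Bach2KO mice and 7.74, 12.5, 6.63 and 7.83 CPM in Bach2WT mice, resting on 544 to 2005 counts. Both Bach2KO females were below both Bach2WT females, and both Bach2KO males were above both Bach2WT males. Over both sexes the means were 8.31 ± 2.60 and 8.69 ± 2.63 CPM, with a log2 fold change of −0.06 (SE 0.25, edgeR adjusted p = 0.978).

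Isg15 (ENSMUSG00000035692, chr4:156283912-156285253, minus strand) encodes a ubiquitin-like protein that is conjugated to other proteins during antiviral responses. With 16 to 69 counts per library, it stood at 0.272, 0.217, 0.317 and 0.358 CPM in Bach2KO mice and at 0.178, 0.267, 0.139 and 0.288 CPM in Bach2WT mice. The groups overlapped, with the 2 highest values in Bach2KO males and the 2 lowest in Bach2WT mice. The log2 fold change was 0.42 (SE 0.57, edgeR adjusted p = 0.929), with an exact permutation p of 0.171.

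Ifit1 and Ifit3 are neighbours on chromosome 19 and encode proteins that bind foreign RNA or its partners. Ifit1 (ENSMUSG00000034459, chr19:34618271-34627409, plus strand) was the least abundant of the 9. Its levels were 0.111, 0.121, 0.396 and 0.0415 CPM in Bach2KO mice and 0.267, 0.0457, 0.0696 and 0 CPM in Bach2WT mice. Bach2KO 3 and Bach2WT 1 were the 2 highest libraries. For the count of 0 in Bach2WT 4, the floor of 3 counts allows up to 0.0432 CPM, and a floor of 6 counts, which applies if both mates of a pair were counted, 0.0864 CPM. All 8 counts of Ifit1 were even.

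Ifit3 (ENSMUSG00000074896, chr19:34560931-34566131, plus strand) was highest in the same 2 libraries. It reached 0.793 CPM in Bach2KO 3 and 0.400 CPM in Bach2WT 1. The other Bach2KO mice (1, 2 and 4) had 0.136, 0.0966 and 0.181 CPM, and the other Bach2WT mice (2, 3 and 4) had 0.0915, 0.139 and 0.130 CPM. The log2 fold changes were 0.78 for Ifit1 (SE 1.08) and 0.65 for Ifit3 (SE 0.80), with adjusted p = 0.933 and adjusted p = 0.925 in edgeR. Without Bach2KO 3 they were −0.09 and −0.46, so the direction of both rested on that library. The near-identical gene Ifit3b shares 18.55% of the 150-base windows of Ifit3, and Ifit1bl2 shares 1.237% of those of Ifit1, which makes the split of reads between these copies uncertain.

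**Figure D3:**
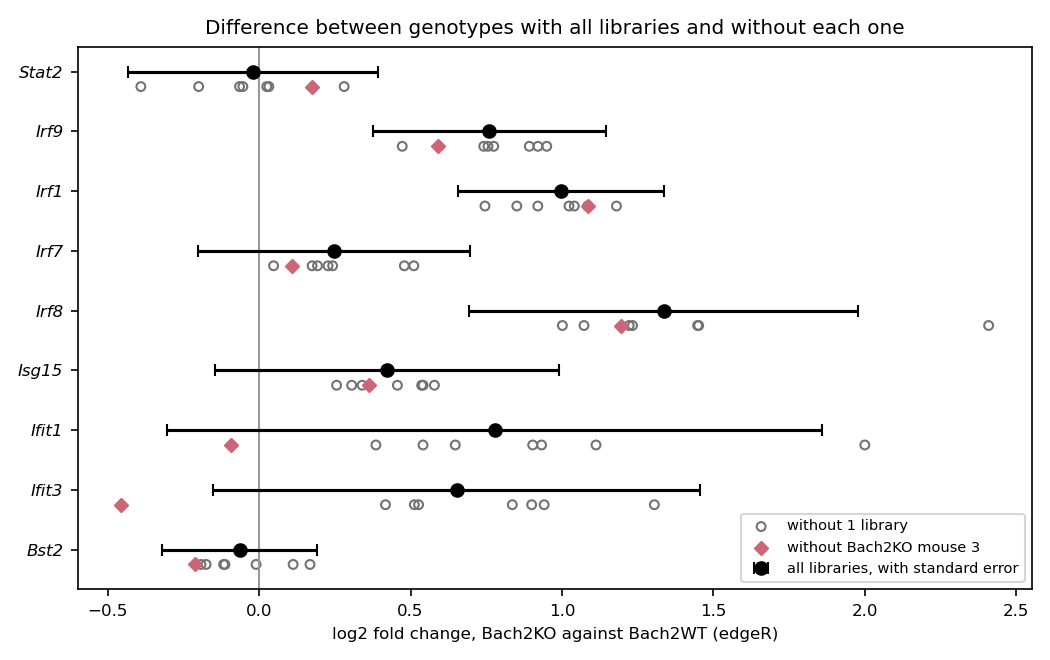
Log2 fold change of each gene, Bach2KO against Bach2WT, with its standard error (black, all 8 libraries) and the estimates without each library in turn (open circles, with red diamonds for Bach2KO 3). Leaving out Bach2KO 3 moves Ifit1 and Ifit3 below 0, and leaving out Bach2WT 1 moves Irf8 to 2.41, whereas Irf1 and Irf9 stay above 0 throughout.

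To compare levels between the genes, the FPKM values were used, which are per length. Bst2 was far above the others, with 5.35 to 13.7 FPKM and a median of 8.49 over the 8 libraries. This median exceeded those of 97.2% of the genes of the table. Isg15 followed with a median of 0.370 FPKM, then Irf9 (0.249), Irf1 (0.225), Irf7 (0.149), Stat2 (0.131), Irf8 (0.0865), Ifit3 (0.0765) and Ifit1 (0.0329). From Isg15 downwards the ranges of neighbours in this order overlapped, and their order is not set by these libraries. Stat2, the partner of Irf9, was listed at 0.0746 to 0.238 FPKM and Irf9 at 0.0679 to 0.422 FPKM.

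Across libraries the 9 genes did not move as a block. After each gene was standardized over the 8 libraries, the mean of the 9 values was highest in Bach2KO 3 (0.76 SD units) and Bach2KO 4 (0.69), followed by Bach2WT 1 (0.37) and Bach2KO 2 (0.22). It was lowest in Bach2WT 3 (−0.90) and Bach2WT 4 (−0.74), with Bach2WT 2 (−0.07) and Bach2KO 1 (−0.34) between. The wild-type female Bach2WT 1 thus lay above both Bach2KO females. The 2 highest libraries differed in composition: Ifit3 (1.98) and Ifit1 (1.41) led in Bach2KO 3, where Stat2 was low (−1.44), whereas Irf1 (1.65) and Stat2 (1.41) led in Bach2KO 4, where Ifit1 was below its mean (−0.55).

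**Figure D4:**
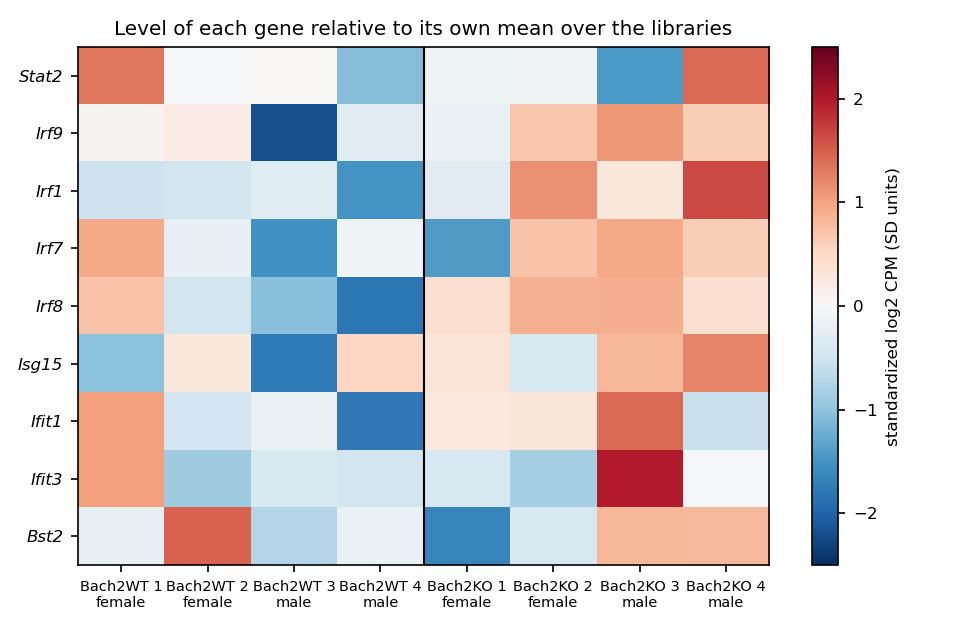
Log2 CPM of the 9 genes in each library, standardized per gene over the 8 libraries (colour, in SD units, red above and blue below the gene's mean), with Bach2WT on the left and Bach2KO on the right. Bach2KO 3 is red for Ifit3 (1.98) and blue for Stat2 (−1.44), and Bach2WT 3 and Bach2WT 4 are mostly blue.

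Of all other genes tested, the 5 with the profile most like this mean, after the mean was itself scaled to an SD of 1, were Myo1c (root mean square difference 0.20 SD units over the 8 libraries), H2-Ab1 (0.23), Cd74 (0.28), St3gal2 (0.29) and Cd83 (0.30). H2-Ab1, a chain of MHC class II, and Cd74, the invariant chain, had log2 fold changes of 1.25 and 1.04. Myo1c, a class I myosin, had a log2 fold change of 0.23, St3gal2 had 0.62 and Cd83 had 1.56. Since the 5 genes were picked by their likeness over the same libraries, the direction of these values follows in part from the choice and is no separate evidence.

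Within the sexes, all 9 genes had a higher (more positive) log2 fold change in males than in females, as did 50.9% of all genes tested. Without Bach2KO 4 this did not hold for Stat2 (difference −0.11). The 9 genes were measured in the same 8 libraries, 2 mice per sex and genotype, and are not independent. In an edgeR model with an interaction of sex and genotype, none of the 9 passed an adjusted p of 0.05, nor did any other gene, and 787 genes had an unadjusted p under 0.05. At an unadjusted p under 0.05, the log2 fold change was higher in males for 2 of the 9, Irf8 and Bst2, beside 3.27% of all genes. The log2 fold change of Irf8 was 0.56 in females and 3.02 in males (edgeR interaction 2.46, adjusted p = 0.807), and without Bach2KO 1, Bach2KO 3, Bach2WT 1 or Bach2WT 4 the interaction (1.36 to 2.15) no longer reached that unadjusted threshold. For Bst2 it was of opposite sign, −0.71 in females and 0.53 in males (edgeR interaction 1.24, adjusted p = 0.793). The estimates lay farther apart for Ifit3 (−1.05 in females and 1.83 in males) and Ifit1 (−0.41 and 2.45), whose male values include Bach2KO 3. Without Bach2KO 3, which leaves 1 Bach2KO male, the male values were 0.41 for Ifit3 and 0.12 for Ifit1. The interaction of Ifit3 reached the unadjusted threshold without Bach2KO 4 (3.59) or Bach2WT 2 (3.59), and that of Irf9, with 0.12 in females and 1.52 in males, without Bach2WT 4 (2.34). Irf1 and Isg15 differed least between the sexes, with 0.70 and 1.27 for Irf1.

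The rest of the pathway was described by lists of known components. Of 21 interferon ligand genes, only Ifnz had a row, with 6 counts in Bach2KO 3 and none elsewhere, and the other 20 were not analysed here. Of 6 receptor chains, 4 had an estimate above 0 and none reached an unadjusted p of 0.05. Il10rb, a chain of the interferon-lambda receptor, was closest, with 2.51 ± 0.608 CPM in Bach2KO and 1.65 ± 0.562 CPM in Bach2WT mice (log2 fold change 0.59, exact permutation p = 0.0857). Ifngr1, which binds interferon-gamma, had a log2 fold change of 0.66 (exact permutation p = 0.114).

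Of 4 other interferon regulatory factors tested, 1 was lower and none higher at an unadjusted p under 0.05. Of all 12820 genes tested, 457 were lower and 500 higher at that threshold. Irf3, which is activated by nucleic acid sensors and starts interferon production, was at 5.02, 6.12, 5.69 and 6.32 CPM in Bach2KO mice and at 6.44, 7.18, 7.73 and 8.57 CPM in Bach2WT mice. The groups did not overlap, in the direction opposite to Irf1 (log2 fold change −0.37, SE 0.16, edgeR adjusted p = 0.663). The share of all genes that were lower without overlap was not computed. Irf2 had a log2 fold change of 0.18 (exact permutation p = 0.6).

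None of the 11 nucleic acid sensors and adaptors tested reached an unadjusted p of 0.05, with 8 estimates above 0, among them Ikbke (0.69) and Sting1 (0.76). The same was true of the 3 enzymes of Isg15 conjugation, of which Uba7, its activating enzyme, had 0.93 and Usp18, which removes Isg15, 0.82. Of 4 feedback inhibitors, Ptpn2, a tyrosine phosphatase, had 1.29 and Socs3 had 0.46, and none reached that threshold. These values are log2 fold changes.

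Of 50 other type I interferon targets listed, 37 passed the filter. Estimates were above 0 for 26 of them, beside 54.7% of all genes tested. At an unadjusted p under 0.05, 3 were higher (beside 3.9% of all genes) and none was lower, and the median log2 fold change was 0.20. Without Bach2WT 1 this median was 0.53. No overlap between the genotypes, as in 2.57% of all genes, was seen for 2 of the 37. Parp12, an ADP-ribosyltransferase, had 1.23, 1.47, 1.20 and 1.21 CPM in Bach2KO mice and 0.511, 0.838, 0.801 and 0.994 CPM in Bach2WT mice (log2 fold change 0.70, SE 0.30). Oasl2, a relative of the oligoadenylate synthetases, had 0.914, 1.00, 1.27 and 0.881 CPM against 0.644, 0.678, 0.446 and 0.0576 CPM (log2 fold change 1.14, SE 0.53). Helz2, a helicase, overlapped between the genotypes (log2 fold change 0.75, SE 0.33). None of these 3 passed after adjustment in edgeR, with adjusted p from 0.643 to 0.668. With gene length or GC content as an offset, none of the list reached the unadjusted threshold as higher.

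**Figure D5:**
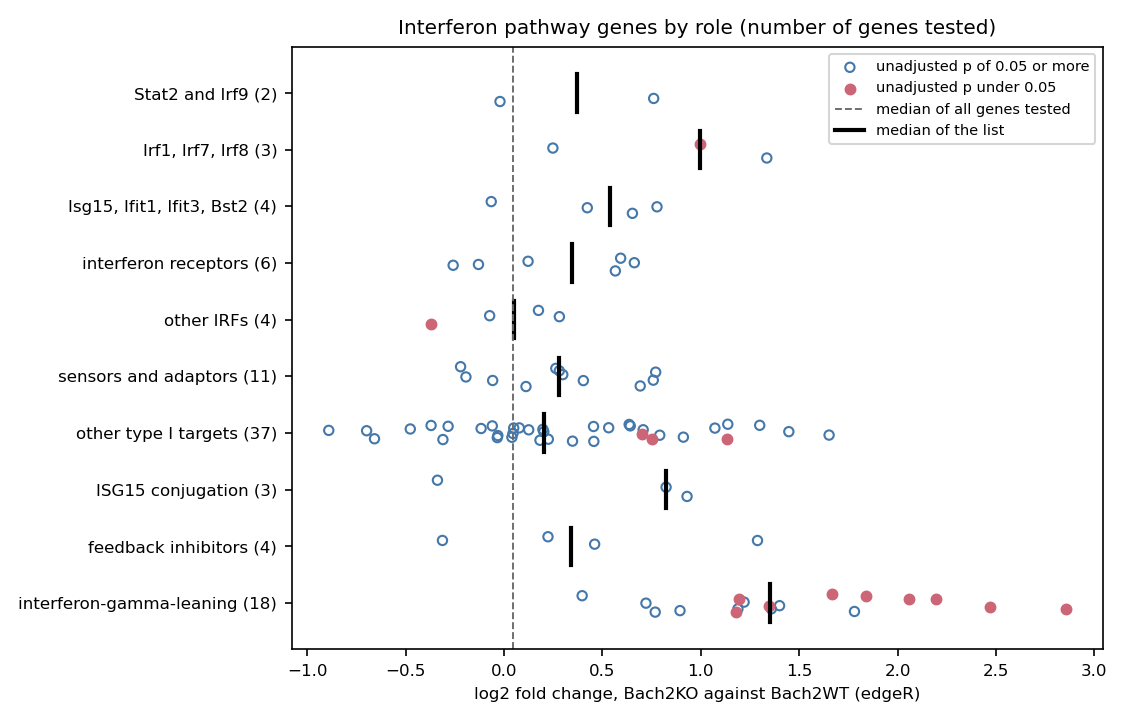
Log2 fold change (Bach2KO against Bach2WT) of the tested genes of each list, with the number tested in brackets, filled red where the unadjusted p was under 0.05, and a black bar at the median of the list. The dashed line is the median of all genes tested (0.05), and the 4 type I targets (Isg15, Ifit1, Ifit3 and Bst2) lie between −0.06 and 0.78.

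Genes that lean towards interferon-gamma (guanylate-binding proteins, immunity-related GTPases, immunoproteasome and others) were set beside these lists. They were measured in the same libraries, and the list was put together with values of these genes known, so that the count is no independent evidence. Of 24 listed, 18 passed the filter, all 18 had estimates above 0 (54.7% of all genes tested did), 9 were higher at an unadjusted p under 0.05 (3.9% of all genes were), and the median log2 fold change was 1.35. Their summed level was 11.1 to 18.9 CPM in Bach2KO and 4.12 to 10.3 CPM in Bach2WT libraries, highest among the latter in Bach2WT 1. The corresponding sums of the 9 genes, which Bst2 dominates, overlapped (9.40 to 17.8 CPM and 9.50 to 16.7 CPM). The difference between the lists was not tested. Of the 16 interferon-gamma-leaning genes with a promoter window, 10 held an ISRE match and 7 a GAS match. Of the 39 other type I targets with a window, 17 and 6 did. The lists therefore do not separate the 2 kinds of interferon.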

How the data were processed

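Paired-end RNA-seq of pancreas covered 4 Bach2KO and 4 Bach2WT mice. The submitters' processing notes name fastp, HISAT2 2.2.1, featureCounts 2.0.6 and the build mm39. The authors deposited unnormalized counts per gene and library, which were the input of all tests. They also deposited FPKM values, made from counts divided by 1 size factor per library and by gene length, which served for levels between genes and for 1 alternative. Columns with that normalized signal and with the authors' fold changes and p-values were not used. Even numbers made up 72.0% to 76.4% of the counts from 4 to 50, as would be so if both mates of a pair were counted.

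Genes were tested with edgeR 4.0.16 in R 4.3.3 (TMM, filterByExpr, genotype as the only term). The interaction model added sex. Log2 CPM used a prior count of 2. For single levels, exact permutation tests (two-sided) ran over all 70 assignments of the mice. Limma 3.58.1 was run on log2(FPKM + 0.1) and DESeq2 1.42.0 on the counts as alternatives. Floors cover counting error only. The procedure was tested on simulated counts. The labels match the replicate numbers by sex and name no other pairing. Deviations from the genotype mean in mice of the same number correlated at 0.21, −0.03, −0.04 and −0.05 (numbers 1 to 4). These values do not show whether the mice were paired.

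The 9 genes and all lists were chosen with earlier results of these data known. All 9 were named. Of each other list, genes with an adjusted p under 0.05 were to be named, otherwise the 2 with the smallest p (3 for type I targets). The list of signalling kinases and STAT factors is not reported here. The remaining alternatives were RLE factors, library sizes without the most abundant genes, other filters, sex as a covariate, a replicate block, length and GC offsets (99.4% of the tested genes had a GC value), counts divided by 2, and leaving out each mouse.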

Additional observations from a re-analysis of the deposited data

Results flagged for a closer look

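Ifit3 stood out in 1 library of each genotype. In Bach2KO 3 its level was 0.793 CPM, and the gap to the next Bach2KO library took a share of 0.878 of the range of the group. In Bach2WT 1 it was 0.400 CPM, with a share of 0.845. Both shares exceeded Dixon's 95% critical value for 4 samples. There were 18 groups of 4 levels examined (9 genes in 2 genotypes), and chance exceeds that value in about 1 of 20 groups. Ifit1 was highest in the same 2 libraries.

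Bst2 was lower in both Bach2KO females than in both Bach2WT females, and higher in both Bach2KO males than in both Bach2WT males. The difference between the sexes in its log2 fold change was 1.24 (edgeR interaction). It did not pass the adjustment over all genes (edgeR adjusted p = 0.793), with 2 mice per sex and genotype.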

How the results depend on the processing

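None of the 9 genes was called under any of the 19 alternatives that tested it, which were 17 for Ifit1 and Ifit3, 18 for Irf8 and all 19 for the others. Irf9, Irf1, Irf7, Irf8 and Isg15 kept a positive estimate in every alternative that could test them (Irf1 0.67 to 1.18, Irf8 0.60 to 2.41, Irf9 0.47 to 0.95). The count of genes called in the whole table was 1 with the reported fit, 75 with DESeq2, 73 with no filter, 0 with at least 10 counts in every library, sex as a covariate, the replicate block or counts divided by 2, and 0 to 0 without each mouse. Of the 9, the number higher at an unadjusted p was 1, but 2 with DESeq2, sex as a covariate, the replicate block or limma on FPKM, 3 with no filter, and 0 (without Bach2KO 4) to 2 (without Bach2KO 1, Bach2WT 1 or Bach2WT 2) without each mouse. The number higher without overlap was 1, but 0 with DESeq2, RLE factors, length offset, GC offset or FPKM, and 0 (without Bach2KO 3) to 2 (without Bach2KO 1 or Bach2WT 1) without each mouse. The median of the 9 was 0.18 (without Bach2KO 3) to 0.90 without each mouse. For the other type I targets the median was 0.18 to 0.53 and the number higher at an unadjusted p 0 to 7 without each mouse (0.53 and 7 without Bach2WT 1, 1 without Bach2KO 2 or Bach2KO 4, 0 without Bach2WT 3), and 0 with the length or GC offset. Estimates changed sign for Stat2 (0.012 with sex as a covariate, −0.39 to 0.28 without each mouse), Ifit1 (−0.092 to 2.00), Ifit3 (−0.46 to 1.31) and Bst2 (−0.21 to 0.17). The exact permutation p of Irf1 was 0.0571 on FPKM. Of all genes at an unadjusted p under 0.05, 52.2% were higher with the reported fit, 27.2% with the length offset and 26.4% with the GC offset, which moved the median of all genes from 0.05 to −0.09 in both. The cause of these changes was not tested. Ifit1, Ifit3 and Isg15 rest on 0 to 69 counts per library, which limits what differences can be detected. With the replicate number as a block, none of the 9 genes was called either, and the log2 fold change of Irf8 was 1.93. Leaving out each mouse in the interaction model, an alternative added after seeing the data, called 0 to 0 of the 9, where a lone mouse was taken to vary like the others.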

Other observations

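Among all genes tested, 327 had an ISRE match in a RefSeq promoter window, and their median log2 fold change was 0.07. The median of all genes tested was 0.05. Of those with an ISRE match, 19 (5.81%) were higher and 12 lower at an unadjusted p under 0.05 (edgeR), where 3.9% of all genes were higher. For the GAS, 757 tested genes had a match, with a median of 0.07, and 30 (3.96%) were higher and 31 lower. Whether either share differs from that of all genes was not tested. Of all 27025 genes with a window, tested or not, 3.993% held an ISRE match and 9.554% a GAS match. Among the other type I targets, 39 of the 50 listed had a window, of which 17 held an ISRE match and 6 a GAS match. Of the 24 listed genes that lean towards interferon-gamma, 16 had a window, of which 10 held an ISRE match and 7 a GAS match.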
